A study of Mus musculus with 6 samples.

Results

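The regions described here are the strong RBPJ peaks of cycling F9 cells that had no counterpart in the peak list of mitotic F9 cells. They were selected on the measured values, by a peak score of at least 18 in asynchronous cells and by the absence of any mitotic peak centre within 250 bp of their own centre. Of the 5206 asynchronous peaks, 323 met both conditions. Without the condition on score, 4781 of the 5206 peaks, or 91.8%, had no mitotic centre within 250 bp, so that a missing partner was the common state of the list and nothing is read from the share itself. The score is the value that the authors' peak caller gave each peak, and it was used only within a list, never to compare the lists.

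RBPJ is the DNA-binding protein through which Notch receptors act on their target genes. Without Notch activity it binds corepressors, and the cleaved intracellular part of a Notch receptor turns it into an activator at genes such as those of the Hes and Hey families. Most transcription factors leave chromatin when it condenses in mitosis, and those that stay are discussed as bookmarks of the genes to be used after division.

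The study performed anti-RBPJ ChIP-seq in F9, a murine embryonal carcinoma line derived from a testicular teratoma. Cycling cells, which per the labels held 95% interphase and 5% mitotic cells, were compared with mitotic cells obtained by nocodazole arrest. The antibody was a custom-made rabbit polyclonal, and 1 peak list per population was used here, from the first of 2 immunoprecipitations. F9 is a single tumour line, nocodazole holds cells before anaphase, and there was no replicate list, so every interval below covers counting error only. A region without a mitotic peak is one where no call passed the authors' threshold. Unchanged occupancy that was not called, lower occupancy in all mitotic cells and loss from some of them cannot be told apart.

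The sequences at 3 of the regions show the DNA under a peak at a Notch target, in an intron and at a promoter. All positions are in mm9 and all sequences are given 5′ to 3′. The RBPJ motif was taken as TTCCCACA or TTCCCACG on either strand, and it is in capitals. Each of these peaks is shown whole on the plus strand, so that a motif on the minus strand appears as its reverse complement. The Hes5 peak lay at chr4:154320545-154320717, the peak in an intron of Nmnat2 at chr1:154939131-154939303 and the Daxx promoter peak at chr17:34047022-34047194. No annotated exon touched any of them.
Hes5: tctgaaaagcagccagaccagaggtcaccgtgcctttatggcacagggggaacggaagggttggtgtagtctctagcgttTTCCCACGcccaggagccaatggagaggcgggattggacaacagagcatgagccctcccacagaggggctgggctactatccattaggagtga
Nmnat2 intron: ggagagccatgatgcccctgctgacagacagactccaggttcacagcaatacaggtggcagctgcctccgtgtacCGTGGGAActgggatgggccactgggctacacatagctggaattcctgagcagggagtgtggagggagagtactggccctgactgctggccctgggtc
Daxx: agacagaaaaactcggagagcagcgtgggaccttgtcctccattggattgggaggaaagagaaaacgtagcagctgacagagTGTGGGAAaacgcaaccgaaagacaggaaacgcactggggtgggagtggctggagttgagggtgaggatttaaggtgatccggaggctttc
The middle of the motif was 2.5 bp from the centre of the Hes5 peak, 7.5 bp from that of the Nmnat2 peak and 0.5 bp from that of the Daxx peak.

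Shorter windows show the motif with its neighbours at regions of other kinds, each as 30 bases read on the strand of the motif. Cmtm7 at chr9:114672611-114672640, Sulf2 at chr2:165970684-165970713 and Id1 at chr2:152543942-152543971 are intronic or intergenic. Rpl24 at chr16:55973691-55973720, Rpl23 at chr11:97643828-97643857 and Snx14 at chr9:88333946-88333975 are promoters. Cmtm7 and Id1 are read on the plus strand and the other 4 on the minus strand.
Cmtm7: aatccaggttaTTCCCACGctaattggctg
Sulf2: cctggttagttTTCCCACGgtagaggcggc
Id1: aggcatccatcTTCCCACAcacacactcag
Rpl24: ctccctttcctTTCCCACGctctctgtaaa
Rpl23: taagcgcagctTTCCCACGcagaacggtcc
Snx14: tgcaattagctTTCCCACActcttctgcca

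Not every strong region held the full motif. The next windows, again of 30 bases, show the shorter TTCCCA in capitals where the 2 bases after it were neither CA nor CG. They are the intronic Nes peak at chr3:87778338-87778367, the Kdm5a promoter at chr6:120313750-120313779, an Esrrb intron at chr12:87842687-87842716 and the distal Sox2 peak at chr3:34656889-34656918, all on the plus strand.
Nes: acagcctgagaaTTCCCActtcccctgagg
Kdm5a: tctatgggtaggTTCCCAgtgtcgtgagaa
Esrrb: ttctgtcccggaTTCCCAagggctggcatt
Sox2: gagtaagttattTTCCCAgaagaagggact

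A pair of short motifs that face each other is the arrangement known from Notch target promoters, where Notch complexes bind side by side. The arrangement was looked for after the values were seen. With a spacer of 15 to 17 bp between TGGGAA and TTCCCA, 1 of the 323 regions had it, as did 6 of all 5206 asynchronous peaks and none of the partnered strong ones. It lay at the promoter of Ehd3, an endocytic recycling gene (chr17:74154015-74154059, plus strand, short motifs in capitals, spacer of 15 bp).
Ehd3: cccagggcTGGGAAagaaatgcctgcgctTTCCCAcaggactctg

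Windows with the CTCF core consensus in capitals came from the Traf3 region (chr12:112381589-112381618, minus strand, 1 mismatch), the Cript region (chr17:87443901-87443930, minus strand, no mismatch) and the Cmtm7 intron (chr9:114672646-114672675, plus strand, 1 mismatch), where it lay beside the RBPJ motif shown above.
Traf3: caagggttcCCTGCAGGGGGCgctaggcca
Cript: tgtagtctgCCACTAGATGGCgcgatgatt
Cmtm7 CTCF: ttgaaggtaCCTGCAGGGGGCgcctgggct

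The 323 regions were found among 402 asynchronous peaks with a score of at least 18, of which they made up 80.3% (exact Clopper-Pearson 95% interval 76.1 to 84.1). The other 79 strong peaks had a mitotic centre within 250 bp and are called partnered here. Scores of the unpartnered strong peaks ran from 18.2 to 52.3 with a median of 20.7, and those of the partnered ones had a median of 22.8. Just inside the threshold, 30 regions had a score of 18.2, and just outside it, 41 unpartnered peaks had a score of 17.7. By distance, the region closest to a mitotic centre was 333 bp from it, and the partnered peak farthest from its mitotic centre was 213 bp from it.

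The selection reached the top of the list, since 7 of its 10 highest peaks and 68 of its 100 highest peaks had no mitotic partner. Both shares were below the 91.8% of the whole list and the 80.3% of the strong peaks. The highest peaks thus had a partner more often than the list, a difference that was not tested. In the asynchronous list, 99.7% of scores fell within 0.05 of a whole multiple of 0.422. If 1 step is 1 read, the regions rested on 43 to 124 reads each. That reading of the score was not tested.

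The highest regions were of varied kinds. The top one, with a score of 52.3, was on chromosome 8 at the start of a transcript that does not code for protein and 61636 bp from the nearest protein-coding start, that of Gm15319. The next, with a score of 45.6, lay 7 bp upstream of the start of 1110002N22Rik, a gene without an established role. An intron of Nes, the gene of the neural progenitor filament nestin, held a peak with a score of 42.2 that was 63766 bp from any mitotic centre. These 3 outscored every other region.

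Next among those outside the Notch pathway were an intron of Gm20388, 64864 bp from its nearest start, that of the ribosome biogenesis gene Urb2 (41.4), and an intergenic peak 22970 bp from the start of Traf3, which encodes an adaptor of immune receptors (39.7). The promoters of Rpl24, Rad9, Cenpt and Banp and an intron of Cmtm7 completed the 12 highest, with scores from 34.6 to 38.8. Of the 12, 7 were promoters, and 5 held the RBPJ motif.

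**Figure D1:**
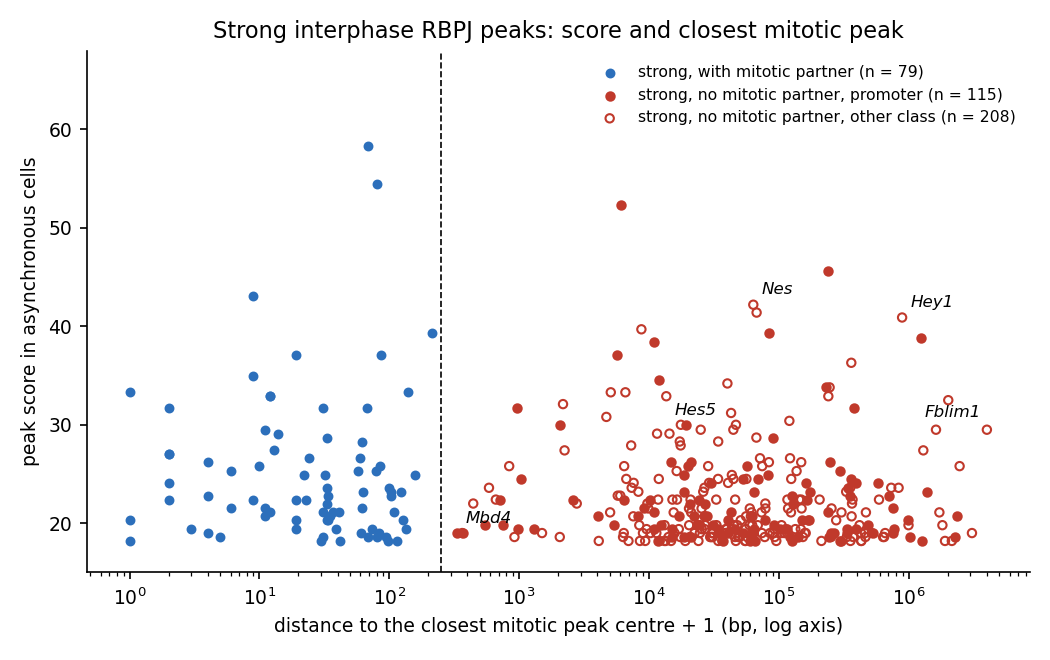
Peak score in asynchronous cells against the distance to the closest mitotic peak centre, plus 1 bp on a log axis, for each of the 402 strong peaks. The dashed line marks 250 bp, filled red points are promoters and open red points other classes; the unpartnered peaks start at 333 bp and have a median distance of 46858 bp.

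Distance to the closest mitotic centre had a median of 46858 bp, with quartiles of 16426 and 160168.5 bp and a maximum of 4015515 bp. It depended on which mitotic peaks were counted, and the median was 78058 bp with those at or above the median score of their list. Only 4 regions had a mitotic centre within 500 bp, 13 within 1 kb and 54 within 10 kb, or 16.7% (12.8 to 21.2). Within 100 kb there were 214, or 66.3% (60.8 to 71.4), and 17 regions were over 1 Mb from any mitotic peak. The selection itself left out mitotic centres within 250 bp, so that these distances say nothing about smaller displacements. Weaker peaks without a partner had a median distance of 94011.5 bp, and 51.5% of them had a mitotic centre within 100 kb. The mitotic centre was at a lower coordinate for 162 regions and at a higher one for the rest.

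The 5 closest were at Mbd4, a DNA glycosylase gene (333 bp), downstream of the start of Cript (364 bp), at Vamp1, a vesicle fusion gene (368 bp), in an intron of Tcte2 (443 bp) and at the promoter of Mrpl1, a mitochondrial ribosome gene (545 bp). In all 13 cases within 1 kb, the mitotic peak had the same nearest protein-coding gene as the region. This held for 48 of 54 within 10 kb, and over all distances for 115 of 323 regions, or 35.6% (30.4 to 41.1). At these genes interphase and mitotic peaks were both present, at separate positions. Centres so close together tend to share a nearest gene, and the matching shares of the other asynchronous peaks are not given here. Nothing particular to these regions is read from these counts.

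The 5 farthest were an intergenic peak 26189 bp from the start of Fblim1 (4015515 bp), an intron of Sept11, a septin gene (3081629 bp), a peak near Gm4694 (2475277 bp), the promoter of Rrp15, a ribosome biogenesis gene (2383542 bp), and that of 2810021B07Rik (2266071 bp). None of the 5 held the full RBPJ motif. The median distance was 64272 bp for the 73 regions with the motif and 44601.5 bp for the 250 without it. By class it was longest at promoters, at 61697 bp, and 49925 bp in introns, with wide quartiles in each class.

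By the class of the centre, in an order of priority that puts promoters first, 115 regions were promoters (35.6%, 30.4 to 41.1), 87 introns (26.9%), 67 intergenic (20.7%) and 25 distal promoters (7.74%). A further 17 lay at transcript ends and 12 in exons. Among partnered strong peaks, 38 of 79 were promoters (48.1%, 36.7 to 59.6) and none was exonic. The odds of a promoter were 0.597 times those of partnered strong peaks (0.363 to 0.980 as 95% interval by Woolf's method; by Fisher's exact test, two-sided, p = 0.0520, and 0.104 after Benjamini-Hochberg adjustment over the 6 comparisons made). Against weaker unpartnered peaks, of which 1330 of 4458 or 29.8% were promoters, the odds ratio was 1.30 (1.03 to 1.65, Fisher's exact test, p = 0.0328, adjusted 0.0984). Neither difference passed 0.05 after adjustment. By the same Fisher's exact test the first did, at an odds ratio of 0.509 (adjusted p = 0.0345), when promoters were taken from protein-coding transcripts only, and at 0.520 (adjusted p = 0.00329) with scores of at least 16. Over its alternatives the adjusted p ran from 0.00329 to 0.759.

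**Figure D2:**
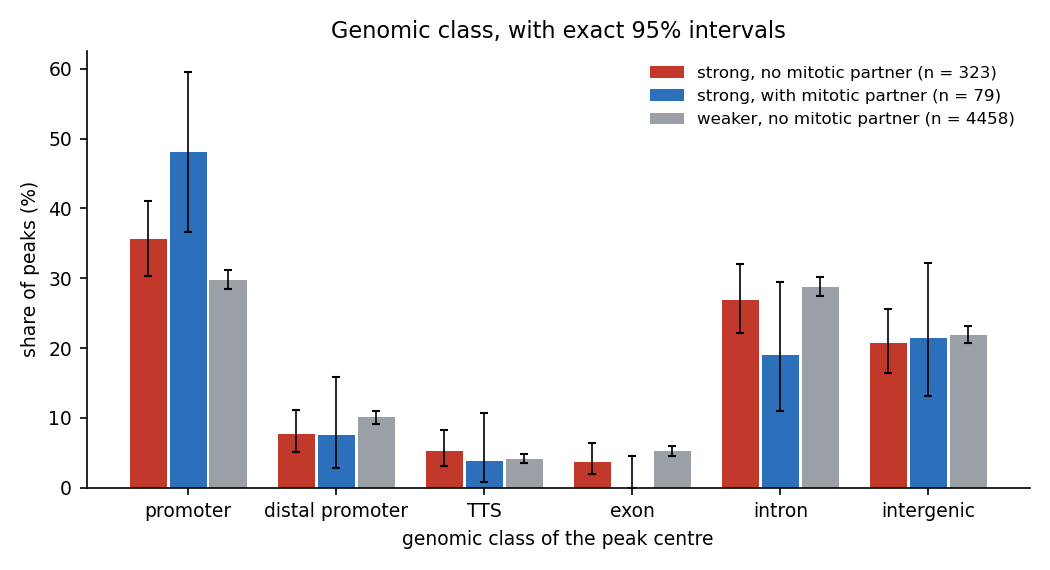
Share of peaks in each genomic class for the 323 strong unpartnered, 79 strong partnered and 4458 weaker unpartnered peaks, as bars with exact Clopper-Pearson 95% intervals. Promoters made up 35.6%, 48.1% and 29.8% of them.

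At promoters the regions sat close to the start, at a median distance of 88 bp to the nearest protein-coding start, and 92 of the 115 lay upstream of it (80%, against 75.3% of all promoter peaks of the list and 78.9% of the partnered strong ones). The promoter definition reaches further upstream than downstream, which favours this side. Starts on both strands were found within 1 kb of 22 regions (6.81%, against 4.86% of the list). Over all classes, 190 regions, or 58.8% (53.2 to 64.2), were within 10 kb of a protein-coding start, near the 61.8% of the whole list, and 34 were over 50 kb from any (10.5%, against 11.3% of the list and 3 of 79 partnered strong peaks). Together they had 300 different nearest protein-coding genes, 17 of which were nearest to more than 1 region.

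The RBPJ motif was present in 73 regions, or 22.6% (18.2 to 27.6), against 9 of 646 windows of the same width placed 2 kb to either side (1.39%) and 473 of all 5206 asynchronous peaks (9.09%). Partnered strong peaks held it in 17 of 79 cases (21.5%). With an odds ratio of 1.06, no difference was found (0.586 to 1.93; by Fisher's exact test, two-sided, p = 0.882, adjusted 0.882), and the interval is wide enough to hold odds lower by 0.586 times or higher by 1.93 times. Against weaker unpartnered peaks, 347 of 4458 or 7.78%, the odds ratio was 3.46 (2.61 to 4.59, Fisher's exact test, p = 3.37e-15, adjusted 2.02e-14). Strong peaks without a mitotic partner thus held the motif more often than weaker ones, and no difference from partnered ones was detectable.

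TTCCCACG occurred in 41 regions and TTCCCACA in 32, and no region held more than 1 full motif. In 46 of the 73, or 63.0%, the motif was within 25 bp of the centre, against 49.3% of all peaks with the motif and 12 of 17 partnered strong ones. The median offset was 18.5 bp, against 10.5 bp in partnered strong and 28.5 bp in weaker unpartnered peaks. The share with a motif was 15.1% for scores from 18 to below 20, 29.1% from 20 to below 25 and 29.5% at 25 or more. It was 19.1% at promoters and 24.5% in the other classes. Partnered strong peaks had it in 12 of 38 promoters and 5 of 41 other regions, and this difference in pattern was not tested.

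The shorter TTCCCA was found in 189 regions, or 58.5% (52.9 to 63.9), against 18.4% of the flanking windows and 35.9% of all asynchronous peaks. Among its forms TTCCCAGG, which is not a full motif, was in 44 regions (13.6%), close to the 41 with TTCCCACG. Flanking windows held TTCCCAGG in 1.55% of cases, weaker unpartnered peaks in 5.54%, partnered strong peaks in 7.59% and the whole list in 6.13%. In partnered strong peaks TTCCCACG was more frequent, at 17.7%. TTCCCAGG and the letters that follow here were chosen after the values were seen. CACGTG, the E-box, was in 39 regions (12.1%, against 8.72% of the list and 12.7% of partnered strong peaks), and TTCCGG, the core of ETS factor sites, in 33 of the 115 promoter regions (28.7%, against 20.3% of all promoter peaks of the list and 10.5% of the partnered strong ones). A match is a run of letters and does not show which factor was bound.

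The CTCF core consensus with up to 1 mismatch was present in 54 regions, or 16.7% (12.8 to 21.2), against 3.87% of flanking windows and 18% of the list. The odds ratio was 0.857 against partnered strong peaks (15 of 79, 0.454 to 1.61; by Fisher's exact test, two-sided, p = 0.620, adjusted 0.847) and 0.933 against weaker unpartnered peaks (789 of 4458, 0.690 to 1.26, p = 0.706, adjusted 0.847). Without mismatches the first ratio was 0.486 (19 of 323 against 9 of 79, 0.211 to 1.12; by the same Fisher's exact test p = 0.0893, adjusted 0.134), and over its alternatives the adjusted p ran from 0.134 to 0.868. CTCF matches were in 48 of 208 regions of other classes (23.1%) and 6 of 115 promoters (5.22%), near the 23.4% and 6.26% of the whole list. Partnered strong peaks held them in 9 of 41 regions of other classes and 6 of 38 promoters (15.8%), and this contrast at promoters was not tested. Both motifs were present in 10 regions, among them Cmtm7, Naprt1 and 1700063H04Rik (3.10%, against 1.42% of the list and 6.33% of partnered strong peaks), and neither in 206 (63.8%, against 74.3% and 65.8%).

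**Figure D3:**
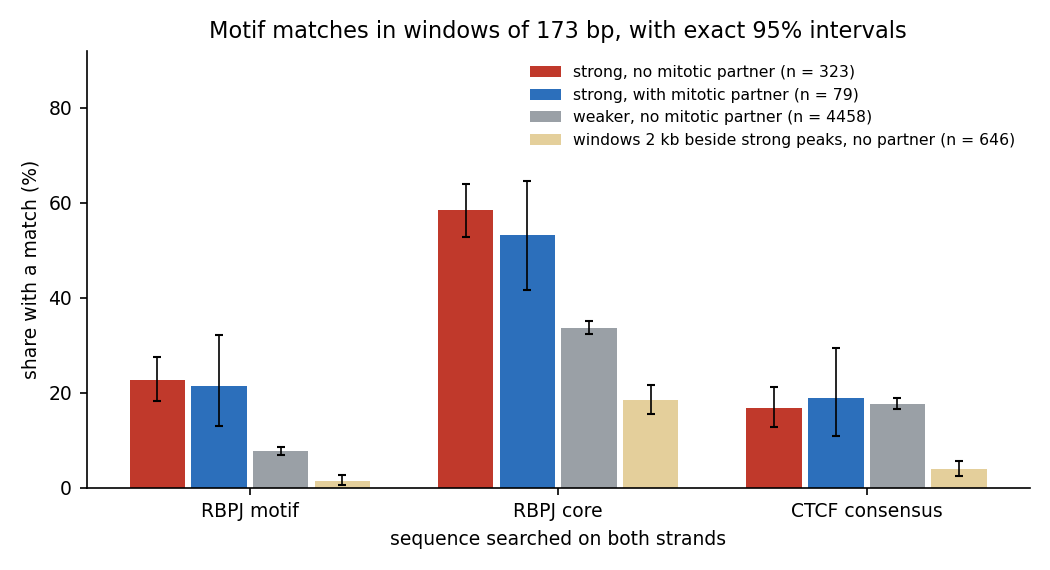
Share of 173 bp windows with a match on either strand for strong unpartnered, strong partnered and weaker unpartnered peaks and for windows 2 kb beside the strong unpartnered peaks, with exact Clopper-Pearson 95% intervals. The full RBPJ motif was in 22.6%, 21.5%, 7.78% and 1.39%, the core TTCCCA in 58.5%, 53.2%, 33.7% and 18.4%, and the CTCF consensus in 16.7%, 19%, 17.7% and 3.87%.

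Genes of the Notch pathway were nearest to, or contained, 6 of the regions (1.86%, against 44 of 5206 or 0.845% of the list). Hey1 and Hes5, repressors induced by Notch, had theirs at a distance, 18341 bp upstream with a score of 40.9 and 14401 bp upstream with a score of 32.9. The closest mitotic centre was 892797 bp from the Hey1 region and 13622 bp from the Hes5 region, and the mitotic peak beside the latter had Hes5 as its own nearest gene. Both the Hey1 and the Hes5 region carried TTCCCACG, and that of Hes5 is printed above. Among partnered strong peaks, Hes1 was the only gene of the list.

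The Kdm5a promoter had a score of 39.3 and lay 343 bp upstream of the start, within the neighbouring gene Ccdc77. Kdm5a encodes a histone demethylase that acts as a corepressor with RBPJ. Introns of Dtx1, a ubiquitin ligase that modulates Notch, and of Ctbp2, a corepressor, scored 19.4 and 19. The region nearest to Rfng, which encodes a glycosyltransferase acting on Notch receptors, scored 18.2 and had a mitotic centre at 6967 bp. None of these 4 held the full motif, and those of Kdm5a and Dtx1 held TTCCCA.

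Genes of the pluripotency network accounted for 12 regions (3.72%, against 72 of 5206 or 1.38% of the list) and for no partnered strong peak. At a list share of 1.38%, few were to be met among 79 partnered peaks. The 12 were not separate loci, since Klf5 had 4, Esrrb 3 and Nanog 2 of them. Those of Klf5 and Nanog lay in windows with at least 5 regions, and those of Esrrb beyond 80 Mb of chromosome 12, as described below. Esrrb, an orphan nuclear receptor that supports self-renewal, had 3, with scores of 34.2 and 30.0 in introns and 26.2 at an internal promoter 66 bp from a start. A single mitotic centre was the closest to all 3, at 14922 to 40283 bp, and it was also nearest to Esrrb. Klf5, a Kruppel-like factor, had 4 intergenic regions with scores of 22.4, 20.3, 19 and 18.2, from 27138 to 211428 bp downstream of its start.

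The Nanog promoter, 24 bp upstream of the start of this homeobox gene, scored 25.8 and was 57224 bp from a mitotic centre. A further region 37928 bp upstream scored 19.8 and held a CTCF consensus. The region nearest to Sox2, at 107821 bp, scored 23.6, that of Id1, a target of BMP signalling, 20.7, and the promoter of Stat3, the mediator of LIF signalling, 19. Of the 12, Id1 and Stat3 held the full RBPJ motif.

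The promoters of the ribosomal protein genes Rpl24 and Rpl23, with scores of 38.8 and 30.0, each held TTCCCACG upstream of the start, and the closest mitotic centres were at 1257914 and 19374 bp. Mitochondrial genes were near 7 regions (2.17%, against 1.44% of the list and 2.53% of partnered strong peaks), each of them a promoter. Among them were Tars2, a mitochondrial tRNA synthetase (23.2), Atp5f1, a subunit of ATP synthase (20.3), Mrpl1 (19.8) and Glrx5, of iron-sulfur cluster assembly (19.4). None of these 4 held the full motif.

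Genes of RNA processing and ribosome biogenesis were near 14 regions (4.33%, against 2.31% of the list and 1.27% of partnered strong peaks), 13 of them promoters. Txnl4b, a splicing factor gene, scored 24.9, and Ints9, of the Integrator complex, and Ddx39b, an mRNA export helicase, 24.1 each. Ints9 alone of these held the full motif, as TTCCCACA. The median distance of the 14 to a mitotic centre was 140185 bp.

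Genes of the cell cycle were near 11 regions (3.41%, against 1.98% of the list and 2.53% of partnered strong peaks), of which 5 were promoters. Those of Rad9, a subunit of a DNA damage checkpoint clamp, Cenpt, a kinetochore protein, and Banp, a nuclear matrix-associated factor, scored 38.4, 37.1 and 34.6. The promoter of Cenpo, also of the kinetochore, scored 20.3. None of these 4 held the full motif. Mitotic centres lay at 11023, 5670, 11911 and 169403 bp from them in this order, and the one beside Cenpt had Cenpt as its nearest gene.

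Membrane traffic and lysosome genes were near 19 regions (5.88%, against 1.67% of the list and 1.27% of partnered strong peaks), of which 13 were promoters. Among these promoters Ehd3 had the highest score, 33.8, followed by the early endosome GTPase gene Rab5b at 24.9, the lysosomal membrane gene Lamp1 at 24.1 and the sorting nexin gene Snx14 at 23.2. Ehd3 and Snx14 held TTCCCACA. Their closest mitotic centres were far away, at 230335 and 1393645 bp.

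Chromatin regulators were near 14 regions (4.33%, against 1.98% of the list and 3 of 79 partnered strong peaks). At promoters, Kdm5a was followed by Brpf1, a scaffold of histone acetyltransferases (22.4), and Daxx, a histone H3.3 chaperone (20.7). Jmjd8 (19.8) came next on the list used here, and no role in chromatin is claimed for it. Brpf1 had a mitotic centre at 709 bp, and its RBPJ motif was at the edge of the peak, 81.5 bp from the centre. Genes of signal feedback and stress were near 14 regions (4.33%, against 1.08% of the list and 2.53% of partnered strong peaks), of which 3 were promoters; those of Ier2, an immediate early gene, and Nqo1, a quinone reductase gene, scored 22.4 and 21.5. Zinc finger and Kruppel-like factor genes were near 13 (4.02%, against 3.73% and 2.53%), with Zfp747 (19.4) and Zbtb37 (18.6) at their own promoters, and the list of cytosolic ribosomal proteins was met by 3 (0.929%, against 0.845% and 3 of 79), of which 1 was nearest to the pseudogene Rpl12-ps1. The genes on these lists were picked with earlier results of the same peaks in view, so that these shares describe the regions and were not tested.

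The regions were unevenly spread over the chromosomes. Chromosome 12 held most, 44 or 13.6%, where it held 5.21% of all asynchronous and 9.79% of all mitotic peaks. Chromosome 8 followed with 39 or 12.1% (8.73 to 16.1), against 9.95% and 16.3%. Partnered strong peaks were also frequent on them, with 11 of 79 (13.9%) on chromosome 12 and 12 (15.2%) on chromosome 8. On chromosome 12, 43 of the 44 regions lay beyond 80 Mb, a limit set after the values were seen, as did 227 of all 271 asynchronous peaks and 291 of 316 mitotic peaks there. Both lists thus had many peaks in the same part of the chromosome. The inputs were not analysed here, and what their read density is in that part was not tested.

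**Figure D4:**
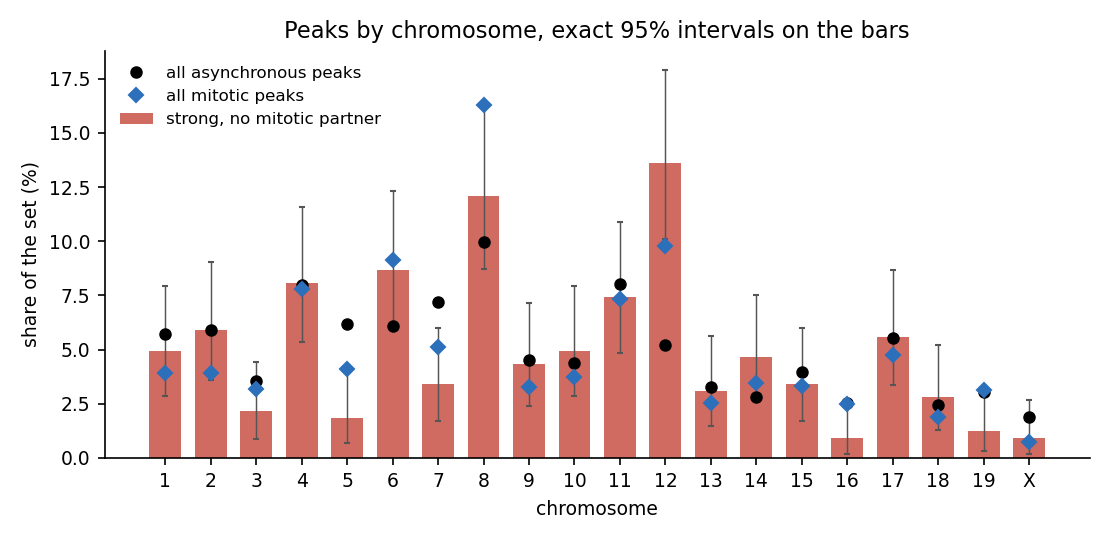
Share of the 323 strong unpartnered peaks on each chromosome (bars, exact Clopper-Pearson 95% intervals), with the shares of all 5206 asynchronous (circles) and all 3227 mitotic peaks (diamonds). On chromosome 12 the bar, at 13.6%, is above both points, and on chromosome 8 the mitotic share of 16.3% is the highest of the plot.

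Windows of 1 Mb with at least 5 regions occurred on 3 chromosomes. The window from 88 to 89 Mb of chromosome 12, just beyond Esrrb, held 8, among 24 asynchronous and 21 mitotic peaks. Of these, 4 were nearest to 6430527G18Rik, with scores of 32.1, 29.1, 25.8 and 24.5, and mitotic centres lay at 2181 to 11924 bp from them. The others were a pair near 2310044G17Rik (24.1 and 18.2), the 1810035L17Rik promoter (20.7) and an intron of the angiogenesis inhibitor gene Vash1 (19.8).

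The window of chromosome 6 that starts at 122 Mb held 6 regions, both Nanog regions among them, with 19 asynchronous and 6 mitotic peaks in all. A glucose transporter gene, Slc2a3, had an intronic region with the motif TTCCCACG (22.8) and a promoter region (18.6). An exon of 1700063H04Rik scored 22.4, and the promoter of M6pr, which encodes a mannose 6-phosphate receptor, 18.2. Their mitotic centres were at 6022 to 59588 bp.

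The window from 99 to 100 Mb of chromosome 14 held the 4 Klf5 regions and an intron of Mzt1, a gene of spindle microtubule nucleation (24.5). It had 20 asynchronous and 33 mitotic peaks, and 3 of the asynchronous peaks had a mitotic partner. The regions were 6701 to 38819 bp from a mitotic centre. In each of these windows mitotic peaks were present between the unpartnered regions, at other positions.

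**Figure D5:**
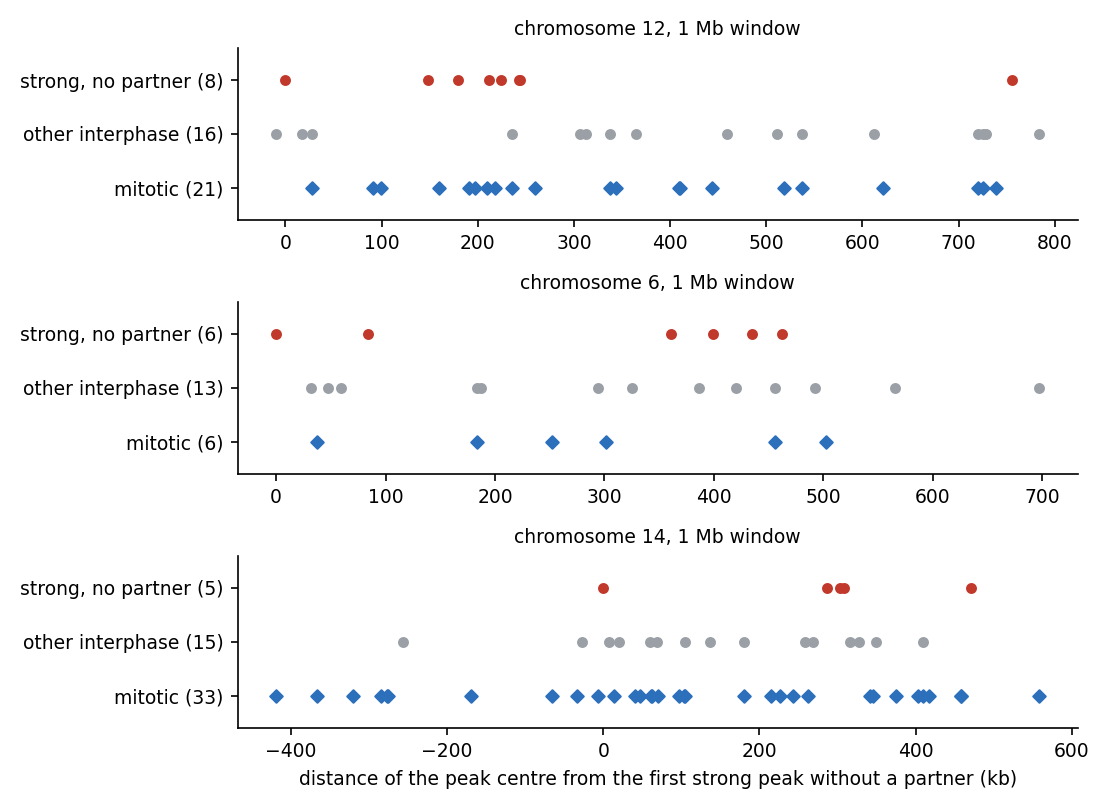
Peaks of the 3 windows of 1 Mb with at least 5 strong unpartnered peaks, by the distance of their centres in kb from the first of these. Levels from top to bottom separate the strong unpartnered peaks (8, 6 and 5), the other asynchronous peaks and the mitotic peaks (21, 6 and 33).

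Loci named in the study text are listed here by their peak calls alone, and the study's own account of their occupancy in mitosis is not retold. The intron of Nmnat2, an enzyme gene of NAD synthesis, scored 32.9 and had its closest mitotic centre at 241310 bp. The intergenic region of chromosome 14 from 76552393 to 76552565 scored 28.7, held TTCCCACA and was 67351 bp from a mitotic centre. The Naprt1 promoter, also of NAD synthesis, scored 22.4 with a mitotic centre at 10191 bp, and those of Fbxl19, which encodes a CpG-binding F-box protein, and of Timm44, of mitochondrial import, scored 19 each, with mitotic centres at 267524 and 759104 bp. Of the 5, all but Timm44 held the full RBPJ motif. That no mitotic call was listed there does not show that RBPJ was absent from these loci in mitosis, and mitotic reads were not analysed here.

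Another asynchronous peak lay within 10 kb of 81 regions (25.1%), and for 10 regions (3.10%, 1.49 to 5.62) such a neighbour had a mitotic partner of its own. In a list where 91.8% of peaks had no partner, few neighbours with a partner were to be met. The matching shares of the whole list are not given here, and nothing particular to these regions is read from either count.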

How the data were processed

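The authors used Bowtie 0.12.7 and HOMER on mm9, and the deposited score of each peak is the value they gave it. The other 4 of the 6 samples were not used here. Python 3.11.15 with numpy 2.4.6 and pandas 2.3.3 handled the tables, scipy 1.17.1 the tests and matplotlib 3.10.9 the plots. Centres were compared by distance, sequences came from NCBIM37 (the same build as mm9), and genes from GENCODE. Around transcript starts of any biotype, promoters spanned 1 kb before and 100 bp after the start, transcript ends 100 bp before and 1 kb after the end, and distal promoters 10 kb before and 1 kb after a start. Motifs were sought on both strands, and the CTCF core consensus had 12 positions. The search and the classes were tested on simulated data.

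The members and the 10 gene lists were chosen with earlier results of these data known. Named regions were the 12 highest scoring, those of Notch and pluripotency genes, the 5 closest to and 5 farthest from a mitotic centre, those in windows of 1 Mb with at least 5, the 4 highest of each other list at a promoter of the list gene itself, the 6 highest with an RBPJ motif within 10 bp of the centre, and loci of the study text; 1 of them and 1 sequence are not reported here. Regions of chromosome 18 were counted but not named. Alternatives changed the score minimum, the distance, the motif letters and mismatches, the window, the promoter definition, the gene set and the sex chromosomes.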

Additional observations from a re-analysis of the deposited data

How the results depend on the processing

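Of 63 alternatives, 55 were counted as leaving their result the same. An odds ratio turned to the other side of 1 in 2, without passing the threshold. A comparison passed the threshold in 2, and a count, share or median moved in 4. A score minimum of 16 gave 612 regions and one of 20 gave 171, while other distance limits gave 310 to 333. The odds ratio for the RBPJ motif against partnered strong peaks turned to 0.975 with a score minimum of 16 and to 0.954 within 50 bp of the centre, with adjusted p from 0.574 to 0.902 over its alternatives by Fisher's exact test, two-sided. Against weaker unpartnered peaks it stayed between 2.77 and 4.74 in all 8 alternatives. The promoter odds ratio against partnered strong peaks passed 0.05 after adjustment at 0.520 with a score minimum of 16 and at 0.509 with protein-coding transcripts only. In both cases the cause was not tested. With all gene biotypes, 67.8% of the regions were within 10 kb of a start, since more starts were counted. With mitotic peaks at or above their median score, the median distance rose to 78058 bp, since fewer peaks were left. No paired analysis was possible because a single peak list per population was used here. Missing partners depend on the depth of the mitotic library, and a weak mitotic peak below the authors' threshold would have been missed.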
